A study of Mus musculus with 4 samples.

Results

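The interferon-stimulated genes examined here are 39 genes that cells switch on when interferon binds its receptors, read in LSK-SLAM cells of *BRE–GFP* transgenic mice. They were taken from a fixed list of symbols by a rule that uses no measured value, although the list was drawn up with earlier results of these data known, and all 39 symbols are rows among the 23906 genes listed. LSK-SLAM cells (Lin-, Sca1+, cKit+, CD150+, CD48-) are the sorted population in which haematopoietic stem cells (HSCs) are enriched. The 4 libraries were GFP+ and GFP- fractions of fetal liver (FL) at embryonic day 14 and of adult bone marrow (BM), 1 library per fraction, and the age of the adults is not given in the labels. All 4 came from mice with the same transgene on a C57BL/6 background, whose matings used heterozygous males, in which GFP is driven by a BMP responsive element, so that GFP is meant to mark cells with active BMP–Smad signalling when they were sorted and not their history. The lineage stain of the sort held antibodies to CD3, B220, Ter119 and Ly6c, and to CD11b for BM. How many embryos or mice were pooled is not given in the sources used here, and both fractions of a tissue may come from the same animals. No group had a replicate, so a difference between 2 libraries has no replicate check, and values below are single measurements unless a fit is named.

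Interferons are secreted cytokines. Type I interferons (alpha and beta) signal through *Ifnar1* and *Ifnar2*, and the type II interferon (gamma) through *Ifngr1* and *Ifngr2*. Janus kinases then activate transcription factors, which bind the interferon-stimulated response element or gamma-activated sites of target promoters. The targets include sensors of viral RNA, enzymes that degrade RNA or halt translation, membrane proteins that hinder virus entry and release, and GTPases that attack the vacuoles of intracellular microbes. In HSCs, interferon is known to drive dormant cells into cycle, and stem cells are known to hold part of this programme on without infection. *Ly6a*, the gene of the Sca1 antigen used in the sort, is itself interferon-induced.

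The response element is visible in the promoters of these genes, and the stretches below show it in members that differed in opposite directions between the BM fractions. Promoter windows of 300 bases (250 before to 50 after the start site, RefSeq on GRCm38.p6) were matched by symbol for 31 of the 39 genes. Its core, GAAA followed by any 2 bases and again GAAA, searched on either strand, lay in a window of 17 of these 31 genes (54.8%), against 1079 of all 27025 genes in the table (3.99%). The core of the gamma-activated site, TTCNNNGAA, which reads the same way on either strand, lay in windows of 11 of the 31 (35.5%), against 9.55% of all genes. In 2 of these genes' windows matches of the 2 cores overlapped. A match describes letters and not a site in use. Capitals mark the run of matches to the response element core on either strand, each sequence is written 5′ to 3′ on the gene's strand, and all bases lie before the start site. The first 3 are from genes with the higher FPKM in BM GFP+ cells, the rest from genes with the higher FPKM in BM GFP- cells.
Isg15: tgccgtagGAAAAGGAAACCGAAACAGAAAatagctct
Bst2: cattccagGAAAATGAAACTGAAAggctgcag
Rsad2: ggtccaacTTTCATTTTCagaaaaca
Gbp2: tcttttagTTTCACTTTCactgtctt
Gbp3: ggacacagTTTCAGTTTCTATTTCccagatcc
Irgm1: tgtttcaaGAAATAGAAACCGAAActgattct
Ifit1: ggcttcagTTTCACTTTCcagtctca

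The *Isg15* stretch is at chr4:156200867-156200904 on the minus strand, and its run of matches lies 78 to 57 bases before the start site. That of *Bst2* is at chr8:71537579-71537610 (minus strand, 130 to 115 bases before the start) and that of *Rsad2* at chr12:26456555-26456580 (minus strand, 120 to 111 bases before). For *Gbp2* the stretch is at chr3:142620596-142620621 on the plus strand, 59 to 50 bases before the start, and for its neighbour *Gbp3* at chr3:142559991-142560022 on the plus strand, 45 to 30 bases before. The *Irgm1* stretch is at chr11:48871427-48871458 (minus strand, 30 to 15 bases before the start). *Ifit1* holds 2 such matches, and the one shown is at chr19:34640777-34640802 on the plus strand, 104 to 95 bases before the start. Both directions occurred with and without the core. Among the 17 genes with the core, 6 favoured BM GFP+ and 4 favoured BM GFP- cells by more than 2-fold. Among the 14 matched genes without it 3 and 3 did, against 18% and 36.7% of all genes. For FL GFP+ and FL GFP- cells the counts were 4 and 5 with the core and 4 and 1 without it, against 16.5% and 38.4%.

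Values are FPKM, fragment counts scaled to transcript length and to library size, so that levels can be compared between genes. Read counts are not part of the files used here, so the counting error of a value is unknown. Genes above 0 numbered 12372 to 17345 per library and were fewer in the GFP+ library of each tissue. Before the results, the labels were checked on marker genes. Of 9 fetal genes, 8 were more than 2-fold higher in FL than in BM in both fractions, and all 10 HSC markers were above 0 in every library, except *Procr*, listed at 0 in BM GFP+ cells and at 60.8 to 113 in the others. The GFP label was checked on 6 BMP target genes, of which 0 were more than 2-fold higher and 2 (*Smad7* and *Bambi*) were lower in GFP+ than in GFP- cells of the FL. *Id1* had 109 FPKM in GFP+ and 56.5 in GFP- cells there, and *Id3* had 96.6 and 97.0. In the BM 4 of the 6 were higher and 1 (*Bambi*) was lower in GFP+ cells, with 70.4 against 17.5 for *Id1*. The HSC list summed to 903 (GFP+) and 882 (GFP-) FPKM in the FL and to 374 and 526 in the BM. Markers of mature blood cells (46 genes found) summed to 2053 (GFP+) and 1555 (GFP-) in the FL and to 91510.3 and 21438 in the BM, or 0.317%, 0.287%, 9.14% and 2.94% of all FPKM. In BM GFP+ cells none of these 46 markers was at 0. Their sum was thus highest in BM GFP+ cells, although the lineage stain was aimed at some of these cell types. The granulocyte and erythroid lists gave 60509 and 25197 of it, with *Hba-a1* and *Hba-a2*, identical in value, both counted. The megakaryocyte list went the other way in the BM, at 318 in GFP+ and 426 in GFP- cells. The part of these markers in the BM differences below was not tested. In such bulk samples more cells of a type and more RNA per cell cannot be told apart.

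**Figure D1:**
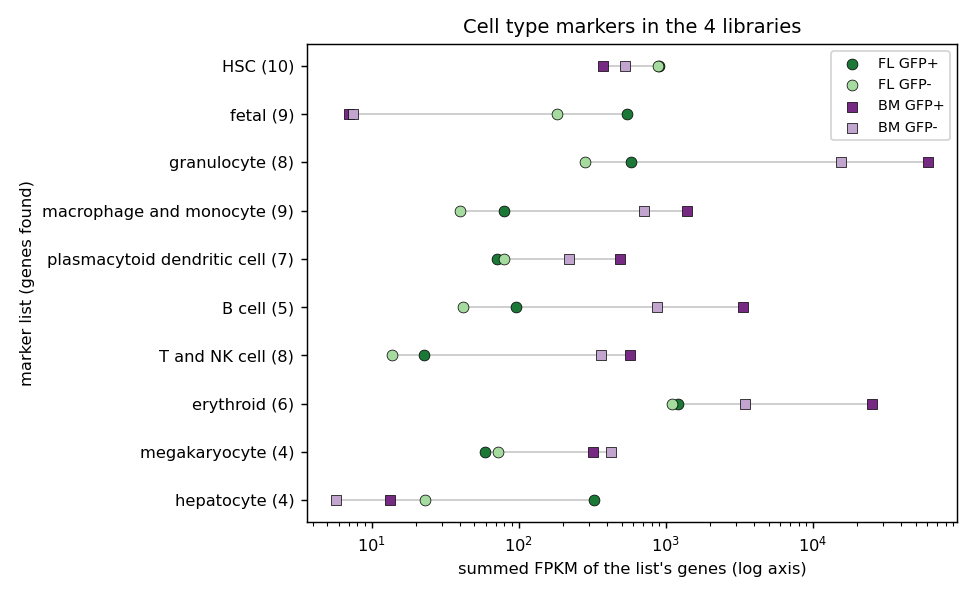
Summed FPKM (log axis) of each fixed marker list, with the number of genes found in brackets, in the 4 libraries. Circles are FL and squares BM libraries; dark symbols are GFP+ and pale ones GFP-. The granulocyte list sums to 60509 in BM GFP+ against 283 to 15587 in the other libraries, and the hepatocyte list is highest in FL GFP+, at 324.

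Interferon-stimulated genes were transcribed in all 4 libraries, while transcripts of type I interferon did not exceed 0.640 FPKM. Of the 39 genes, 36 were above 0 in FL GFP+, 38 in FL GFP-, and 39 in each BM library. An FPKM of at least 1 was reached by 82.1%, 89.7%, 97.4% and 97.4% of them in FL GFP+, FL GFP-, BM GFP+ and BM GFP- cells, against 41.0% to 48.3% of all genes. The median gene of the list stood at 12.2, 13.0, 14.1 and 14.1 FPKM in that order, close together across libraries. Ligand genes were read from a list of 21, and in FL GFP+ cells all were at 0. Elsewhere *Ifng*, the type II interferon of T and NK cells, reached 3.58 (GFP+) and 1.14 (GFP-) FPKM in the BM. *Ifna2* was seen in BM GFP- cells alone, at 0.186, and *Ifnz* in both GFP- libraries, at 0.640 (FL) and 0.221 (BM). The 8 T and NK cell markers, the cells known to make *Ifng*, summed to 22.8 and 13.7 FPKM in the FL (GFP+, GFP-) and to 567 and 360.0 in the BM.

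The receptors of type I and type II interferon were present throughout. *Ifnar1* had 22.4, 15.0, 12.6 and 10.8 FPKM in FL GFP+, FL GFP-, BM GFP+ and BM GFP- cells, the order used for every set of 4 values below, and *Ifnar2* had 89.9, 42.4, 138 and 103. For interferon gamma, *Ifngr1* had 69.9, 99.7, 210.1 and 186 and *Ifngr2* had 11.9, 24.9, 39.8 and 23.8. *Ifnlr1*, the receptor chain of lambda interferons, did not exceed 0.997 in any library, and *Il10rb*, which it shares with interleukin 10, had 8.10, 15.8, 51.0 and 37.2.

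**Figure D2:**
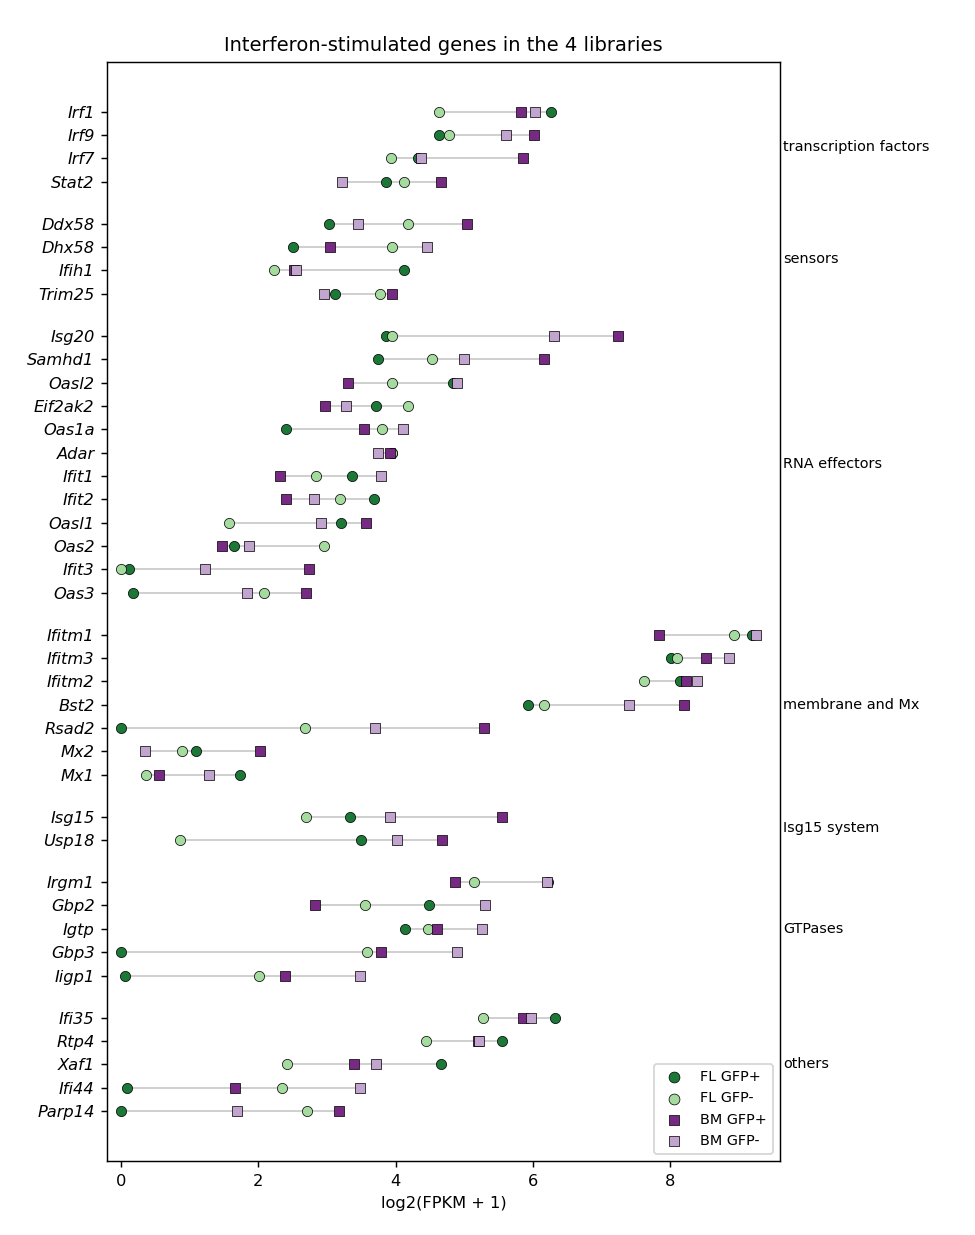
Level of each of the 39 genes, as log2(FPKM + 1), in the 4 libraries, grouped by role. Circles are FL and squares BM libraries; dark symbols are GFP+ and pale ones GFP-. *Ifitm1*, *Ifitm2* and *Ifitm3* reach the highest values, with the BM GFP+ value of *Bst2* (294 FPKM) within their range. FL GFP+ is the library at 0 for *Rsad2*, *Gbp3* and *Parp14*.

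The membrane proteins held most of the list's transcript. *Ifitm1*, *Ifitm2* and *Ifitm3*, neighbouring genes of chromosome 7 whose proteins keep viruses from fusing with the cell membrane, took 64.1%, 66.2%, 43.8% and 60.7% of the summed FPKM of the 39 genes. *Ifitm1* had 582, 486, 228 and 608 FPKM. It was 2.67-fold lower in BM GFP+ than in BM GFP- cells, and its other 3 values lay close together. *Ifitm2* had 281, 195, 299.6 and 336 and *Ifitm3* had 258, 273, 365 and 464, and neither passed 2-fold in any of the 4 pairs compared. These genes resemble each other in sequence, and reads that fit more than 1 of them were shared out by the authors' multi-read correction.

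*Bst2* encodes tetherin, which holds budding virus at the cell surface, and is also a known surface marker of plasmacytoid dendritic cells. Its FPKM was 59.9, 70.3, 294 and 168. Both BM values exceeded both FL values. *Rsad2*, which encodes viperin, was listed at 0 in FL GFP+ cells and had 5.38, 38.2 and 12.0 in the other 3. The dynamin-like GTPases *Mx1* and *Mx2*, known for blocking viral replication, were scarce, with 2.31, 0.291, 0.475 and 1.42 for *Mx1* and 1.14, 0.844, 3.09 and 0.273 for *Mx2*.

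Transcription factors of the response were detected in every library. *Irf1*, an early activator that interferon gamma induces, had 75.9, 23.8, 56.0 and 64.7 FPKM, so that FL GFP- cells stood apart below the other 3. *Irf7*, the factor that amplifies interferon alpha production, had 19.1, 14.3, 56.6 and 19.6, with BM GFP+ cells alone above 20. *Irf9* and *Stat2*, whose proteins are part of the complex that binds the response element, had 23.7, 26.5, 63.7 and 47.6, and 13.6, 16.4, 24.4 and 8.36. Both were highest in BM GFP+ cells.

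The sensors of viral RNA differed in pattern although they act in 1 pathway. *Ddx58*, the gene of RIG-I, had 7.16, 17.1, 32.1 and 9.89 FPKM, and *Trim25*, which encodes a ubiquitin ligase that activates RIG-I, had 7.67, 12.6, 14.5 and 6.74. Both had the GFP+ value below the GFP- value in FL and above it in BM. *Dhx58* (LGP2), a sensor without signalling domains, had 4.71, 14.5, 7.26 and 21.0, lower in GFP+ cells of both tissues. *Ifih1* (MDA5), the sensor of long double-stranded RNA, had 16.4, 3.68, 4.73 and 4.88, and FL GFP+ cells alone exceeded 5.

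Among the effectors that act on RNA, *Isg20*, an exonuclease, had 13.5, 14.4, 150.0 and 77.9 FPKM, both BM values being above both FL values. *Samhd1*, which depletes the nucleotides needed for reverse transcription, had 12.4, 22.2, 70.7 and 31.1. *Adar*, which edits adenosine in double-stranded RNA and keeps self RNA from being sensed, was the steadiest member, with 14.5, 14.4, 14.1 and 12.4. *Eif2ak2*, the gene of the kinase PKR that halts translation, had 12.2, 17.1, 6.82 and 8.67, values identical to those of *Gm6548*, so that reads of the 2 symbols cannot be told apart.

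The oligoadenylate synthetases make the signal that activates RNase L, and the *Ifit* proteins bind foreign mRNA ends. *Oas1a* had 4.27, 13.0, 10.7 and 16.2 FPKM, *Oas2* had 2.12, 6.74, 1.76 and 2.64, and *Oas3* had 0.133, 3.25, 5.45 and 2.57. All of these synthetases had a lower value in FL GFP+ than in FL GFP- cells. The related *Oasl1*, a repressor of *Irf7* translation, had 8.22, 1.97, 10.9 and 6.54, and *Oasl2* had 27.5, 14.5, 8.87 and 28.8, both higher in FL GFP+ than in FL GFP- cells. Of the neighbours on chromosome 19, *Ifit1* had 9.33, 6.16, 4.01 and 12.8, *Ifit2* had 11.9, 8.18, 4.32 and 6.02, and *Ifit3* had 0.0839, 0, 5.71 and 1.33. *Ifit3* was thus at or near 0 in both FL libraries where *Ifit1* and *Ifit2* were not.

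*Isg15*, a ubiquitin-like protein joined to target proteins, had 9.12, 5.46, 45.8 and 14.1 FPKM. *Usp18*, the protease that removes it and blocks signalling at the type I receptor, had 10.3, 0.814, 24.6 and 15.2. Within each fraction both were higher in BM than in FL, and within each tissue both were higher in GFP+ than in GFP- cells, although *Isg15* in FL and *Usp18* in BM by less than 2-fold. The interferon-inducible GTPases ran otherwise. *Gbp2* had 21.5, 10.7, 6.10 and 38.4, and *Irgm1* had 73.3, 34.4, 28.3 and 72.6. In both, FL GFP+ exceeded FL GFP- and BM GFP+ lay below BM GFP-. *Gbp3* was listed at 0 in FL GFP+ cells and had 11, 12.8 and 28.9 in the others, *Iigp1* had 0.0434, 3.03, 4.23 and 10.2, and *Igtp* had 16.5, 21.1, 23.2 and 37.4. All 5 GTPases had a lower FPKM in BM GFP+ than in BM GFP- cells, 4 of them by more than 2-fold (36.7% of all genes were higher in BM GFP- cells by this measure) and *Igtp* by 1.61-fold. Relatives in the other pathway lists did not all share this. *Gbp4* had 7.83 FPKM in BM GFP+ against 2.19 in BM GFP- cells, whereas *Gbp5* had 0.911 against 4.06, *Gbp6* 0.797 against 2.11 and *Gbp7* 1.16 against 10.9.

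The remaining members have varied roles. *Ifi35*, a cytoplasmic partner of NMI, had 78.6, 37.6, 57.1 and 61.8 FPKM, and *Rtp4*, a receptor transporter, had 45.7, 20.8, 35.9 and 36.2. *Xaf1*, which promotes apoptosis, had 24.3, 4.32, 9.57 and 12.2. FL GFP- cells gave the lowest of the 4 values for each. *Ifi44* had 0.0594, 4.06, 2.17 and 10.2, and *Parp14*, an ADP-ribosyltransferase, was listed at 0 in FL GFP+ cells and had 5.56, 8.06 and 2.22 in the others.

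The first comparison asks whether the response differs between GFP+ cells, which the study calls BMP-activated, and GFP- cells of the FL. Nearly as many of the 39 genes were higher on one side as on the other. Taking the study's 2-fold threshold within this pair alone, an FPKM more than 2 times that in the other library, 11 were higher in FL GFP+ cells (28.2%, against 16.5% of the 16092 genes above 0 in either library) and 10 in FL GFP- cells (25.6%, against 38.4%). Many of all these genes were below 1 FPKM in both libraries, and over genes that reached 1 in either the counts were 10 and 10 against 17.9% and 26.8% of all genes. *Usp18* led the first group at 12.7-fold, followed by *Mx1* at 7.93-fold, *Xaf1* at 5.62-fold, *Ifih1* at 4.46-fold, *Oasl1* at 4.18-fold and *Irf1* at 3.19-fold. *Irgm1*, *Rtp4*, *Ifi35* and *Gbp2* were between 2.01-fold and 2.2-fold, and *Ifit3* counted only because it was at 0 in FL GFP- cells. In the second group *Iigp1* was 69.7-fold, *Ifi44* 68.4-fold and *Oas3* 24.4-fold higher in FL GFP- cells, with FPKM of 0.133 or less in FL GFP+ cells. *Oas2*, *Dhx58*, *Oas1a* and *Ddx58* were 3.17-fold, 3.08-fold, 3.05-fold and 2.39-fold higher there, and no fold is given for *Rsad2*, *Gbp3* and *Parp14*, listed at 0 in FL GFP+ cells. Among all genes that reached 1 FPKM in FL GFP- cells, 12.0% were also at 0 in FL GFP+ cells, against 3 of these 35. The median log2(FPKM + 1) ratio of GFP+ to GFP- over the 39 genes was 0.0011, against -0.064 over all genes. With every library scaled to the same FPKM total the counts were 7 and 11, against 12.9% and 41.3% of all genes. Equal upper quartiles gave the same counts, against 13.1% and 40.8%, and under both scalings *Gbp2*, *Irgm1*, *Ifi35* and *Rtp4* no longer passed. Hepatocyte markers moved with this contrast, summing to 324 FPKM in GFP+ and 23.2 in GFP- cells, and of 9 macrophage and monocyte markers 6 were more than 2-fold higher and 3 (*Cd68*, *C1qa* and *C1qb*) more than 2-fold lower in GFP+ cells. Their part in the differences was not tested.

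In the BM the same question gave the same counts, with 1 of the genes higher in GFP+ and 4 of those higher in GFP- cells shared with the FL. Higher in BM GFP+ cells were 11 of 39 genes (28.2%, against 18% of 17802 genes), and 10 were higher in BM GFP- cells (25.6%, against 36.7%). Over genes that reached 1 FPKM in either library the counts were again 11 and 10, but the shares of all genes were 21.1% and 19.6%, so that the place of the members relative to all genes rested on this filter. *Mx2* was 11.3-fold higher in GFP+ cells at low FPKM, and *Ifit3* 4.29-fold, *Parp14* 3.64-fold, *Isg15* 3.24-fold, *Ddx58* 3.24-fold, *Rsad2* 3.18-fold, *Stat2* 2.92-fold and *Irf7* 2.89-fold. *Samhd1*, *Trim25* and *Oas3* completed this group at 2.27-fold, 2.15-fold and 2.12-fold. Higher in GFP- cells were *Gbp2* by 6.29-fold, *Ifi44* by 4.69-fold, *Oasl2* by 3.24-fold, *Ifit1* by 3.18-fold, *Mx1* by 3.0-fold, *Dhx58* by 2.89-fold, *Ifitm1* by 2.67-fold, *Irgm1* by 2.57-fold, *Iigp1* by 2.41-fold and *Gbp3* by 2.26-fold. By role, those higher in GFP+ and in GFP- cells were 2 and 0 of 4 transcription factors and 2 and 1 of 4 sensors. Among 12 RNA effectors they were 3 and 2, and among 7 membrane and *Mx* genes 2 and 2. Of the 2 *Isg15* system genes they were 1 and 0, of 5 GTPases 0 and 4 and of 5 others 1 and 1. Each role holds few genes, and no difference between roles was tested. The median ratio was -0.11, against -0.063 over all genes. Equal FPKM totals changed the counts to 8 and 13, with *Trim25*, *Oas3* and *Samhd1* no longer passing, and equal upper quartiles changed them to 10 and 10.

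Markers of mature cells moved with the BM contrast. Of the 46 markers of mature blood cells, 31 were more than 2-fold higher in the GFP+ and 1 in the GFP- library of the BM. Of the 7 plasmacytoid dendritic cell markers, 5 were more than 2-fold higher in BM GFP+ than in BM GFP- cells. One of the 5, *Siglech*, had 0, 0.0424, 98.0 and 21.6 FPKM, whereas *Bst2*, a member that is also in that list, was 1.75-fold higher. Whether such cells were present was not tested. The HSC markers went the other way, 9 of 10 being more than 2-fold lower in BM GFP+ cells. The exception was the Sca1 gene *Ly6a*, with 19.7, 46.3, 286 and 146 FPKM. Cell makeup and GFP status cannot be told apart in this pair of libraries.

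**Figure D3:**
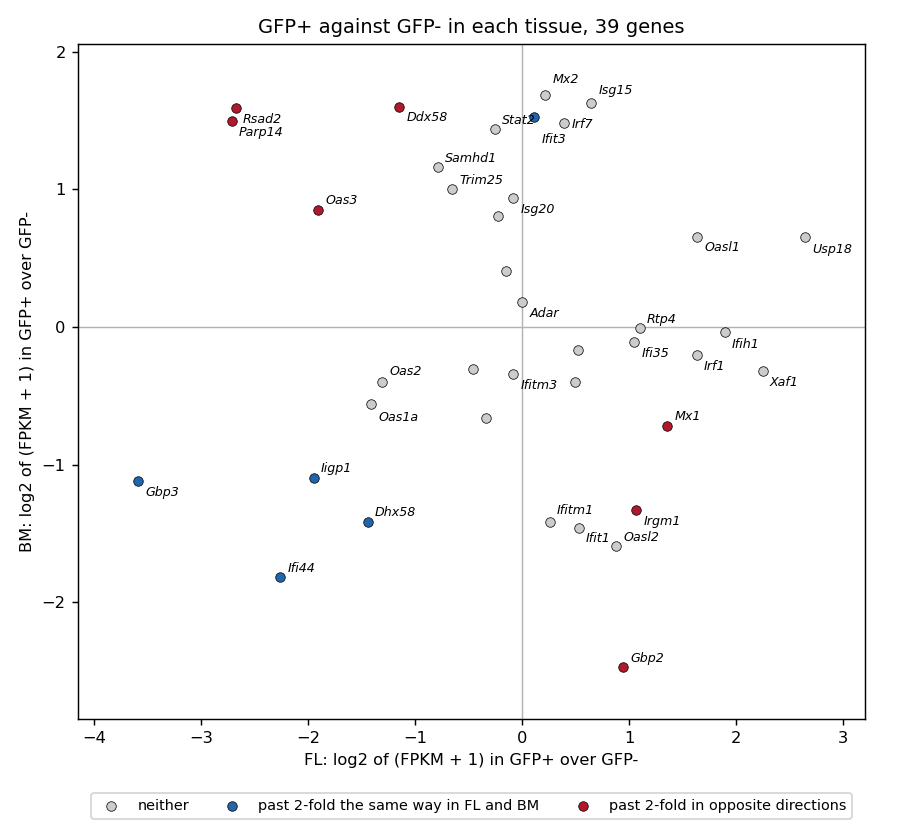
GFP+ over GFP- ratio of each of the 39 genes on the log2(FPKM + 1) scale, in FL (horizontal) and in BM (vertical). Blue points passed 2-fold on FPKM the same way in both tissues and red points in opposite directions; the cloud shows no slope (Pearson's r = -0.060 across genes).

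Few members followed GFP in both tissues. By the study's rule, which asks for the 2-fold difference in both FL and BM, 4 genes were higher in GFP- cells of both (10.3%, against 16.4% of 15035 genes), and these were *Dhx58*, *Gbp3*, *Iigp1* and *Ifi44*. *Ifit3* alone was higher in GFP+ cells of both (2.56%, against 3.15%), and its FL values were 0.0839 and 0. Over genes that reached 1 FPKM in each tissue's pair these counts were 4 and 0, against 6.48% and 3.45% of all genes, so that the 4 lay below the share of all genes without this filter and above it with it. More genes, 7 of 39 (17.9%, against 13.6%), passed 2-fold in opposite directions. *Ddx58*, *Oas3*, *Rsad2* and *Parp14* favoured GFP- cells in the FL but GFP+ cells in the BM, and *Gbp2*, *Irgm1* and *Mx1* the reverse. Across the 39 genes the FL and BM ratios, which share no library, had a Pearson's r of -0.060 and a Spearman's rho of -0.086, and over the 13609 genes that reached 1 FPKM in any library r was 0.031. These describe the genes of 4 libraries and are not a test, since genes are no independent replicates.

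The tissues were the only repeat of the GFP contrast that a test could use. Its error starts from the disagreement between them, which limma draws towards that of genes with a similar average level. A limma fit on log2(FPKM + 1) with tissue as a block, with 1 residual degree of freedom per gene, gave 13 of 11707 genes an adjusted *P* value under 0.05 (0.111%), none of them a member (0 of 39). At an unadjusted *P* value under 0.05 there were 2 of 39 members, against 6.25% of all genes. These were *Gbp3* (log2 change -2.35, standard error 0.96) and *Ifi44* (log2 change -2.04, standard error 0.85), each with a limma adjusted *P* = 0.78 and lower in GFP+ cells of 2 of 2 tissues. Standard errors of the 39 GFP effects ran from 0.29 to 1.14 with a median of 0.76 on the log2 scale. Because limma draws on all genes for them, they are not a gene's own disagreement between the tissues. *Dhx58* had log2 ratios of -1.44 in FL and -1.41 in BM, but a standard error of 0.78.

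Between the tissues the list leaned towards the BM. In GFP+ cells 17 genes had an FPKM more than 2 times higher in BM (43.6%, against 36% of 14837 genes) and 9 in FL (23.1%, against 27%). In GFP- cells 16 were higher in BM (41.0%, against 29.2% of 18409 genes) and 3 in FL (7.69%, against 21.9%). Markers of mature blood cells were higher in BM in this fraction too, summing to 21438 FPKM against 1555 in FL, and their part was not tested. Over genes that reached 1 FPKM in either library of a pair the counts were 17 and 9 in GFP+ cells, against 33.6% and 25.1% of all genes, and 16 and 2 in GFP- cells, against 18.6% and 19.3%. The median log2(FPKM + 1) ratio of FL to BM was -0.53 in GFP+ and -0.78 in GFP- cells, against -0.074 and -0.053 over all genes. Scaling to equal FPKM totals moved the counts to 12 in BM and 12 in FL for GFP+ cells, against 29.2% and 38.1% of all genes. For GFP- cells they became 9 and 7, against 24.7% and 30.0%. Equal upper quartiles left the GFP+ counts at 17 and 9, against 35.4% and 27.7% of all genes. They gave 13 and 6 in GFP- cells, against 27.2% and 24.8%. Relative to all genes, whose median moved too, the members' median with equal totals was -0.16 in GFP+ and -0.49 in GFP- cells. With equal totals the lean in counts was thus lost in GFP+ and narrowed in GFP- cells. The shares of all genes leaned to FL under that scaling.

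Higher in BM in both fractions were 9 genes (23.1%, against 14% of 14387 genes), and none was higher in FL in both (0 of 39, against 8.78%). With the filter at 1 FPKM these counts stayed at 9 and 0, against 11.9% and 7.70% of all genes. The 9 were *Isg20* (11.1-fold in GFP+ and 5.42-fold in GFP- cells), *Isg15* (5.02-fold and 2.59-fold), *Bst2* (4.91-fold and 2.39-fold), *Usp18* (2.38-fold and 18.7-fold), *Iigp1* (97.3-fold and 3.36-fold), *Ifi44* (36.5-fold and 2.51-fold), *Rsad2*, *Gbp3* and *Ifit3*. *Rsad2* and *Gbp3* were at 0 in FL GFP+ cells and 2.23-fold and 2.63-fold higher in BM among GFP- cells, and *Ifit3* was at 0 in FL GFP- cells and 68.1-fold higher in BM among GFP+ cells. The GFP+ folds of *Iigp1*, *Ifi44* and *Ifit3* rest on FL values near 0, of 0.0434, 0.0594 and 0.0839 FPKM. With equal FPKM totals *Isg20*, *Iigp1* and *Ifit3* still passed in both fractions (3 of 39, against 10.8% of all genes) and the other 6 did not. Under that scaling *Eif2ak2* became higher in FL in both (1 of 39, against 15.2%). Equal upper quartiles removed *Rsad2* alone (8 of 39 left, against 12.8%). Another 7 genes (17.9%, against 9.9%) passed 2-fold in opposite directions. *Gbp2*, *Irgm1*, *Mx1*, *Ifit1* and *Xaf1* were higher in FL among GFP+ and in BM among GFP- cells, and *Parp14* and *Mx2* the reverse.

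**Figure D4:**
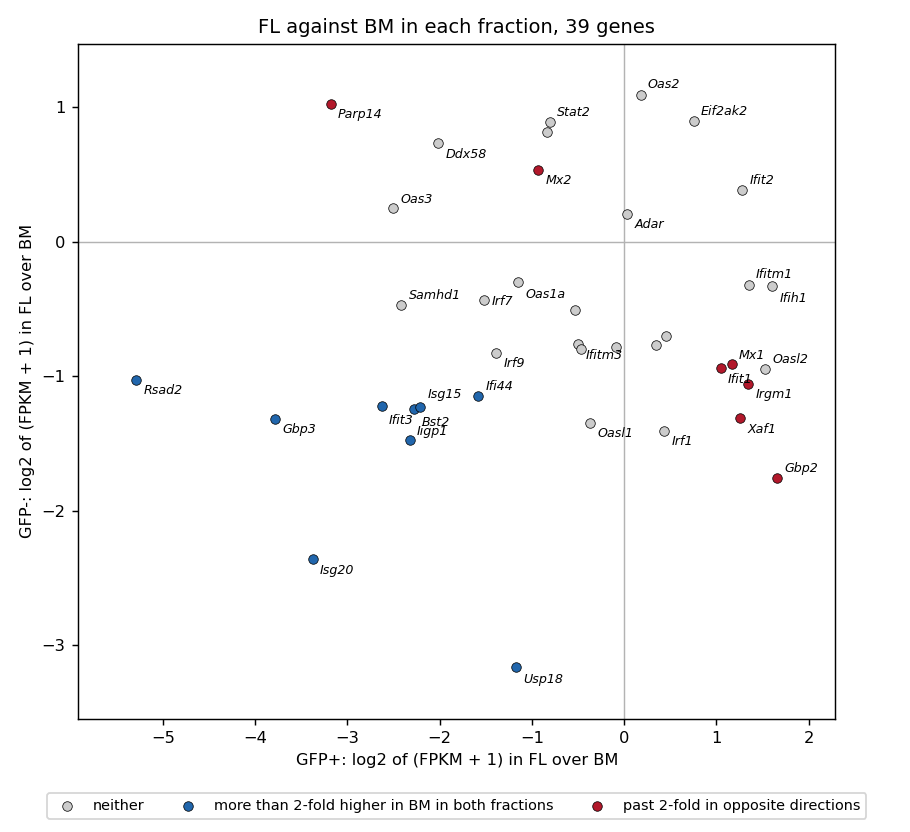
FL over BM ratio of each of the 39 genes on the log2(FPKM + 1) scale, in GFP+ (horizontal) and GFP- cells (vertical). Blue points, all in the lower left, are the 9 genes more than 2-fold higher in BM in both fractions; red points are the 7 that passed 2-fold in opposite directions.

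The tissue term of the same limma fit called 288 of 11707 genes (2.46%), 254 of them higher in BM, and 2 of the 39 members. *Isg20* had a log2 change of -2.87 for FL against BM (standard error 0.47, adjusted *P* = 0.018) and *Bst2* one of -1.76 (standard error 0.37, adjusted *P* = 0.0499), each lower in FL in 2 of 2 fractions, which may share animals, so that the test may measure less than the spread between animals. At an unadjusted *P* value under 0.05 there were 9 of 39, against 17.2% of all genes. The call of *Bst2* sat at the threshold, and both calls were lost without the trend in limma (smallest member adjusted *P* = 0.21), with a pseudocount of 0.1 (0.072) and with equal FPKM totals (0.058). Over the 5 alternatives this smallest adjusted *P* value ran from 3.57e-06 to 0.21. The lists of granulocyte and B cell markers were more than 2-fold higher in BM in both fractions in 8 of 8 and 5 of 5 genes, as were 6 of 7 plasmacytoid dendritic cell markers, 1 of them *Bst2* itself. Their part in the tissue effect was not tested.

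**Figure D5:**
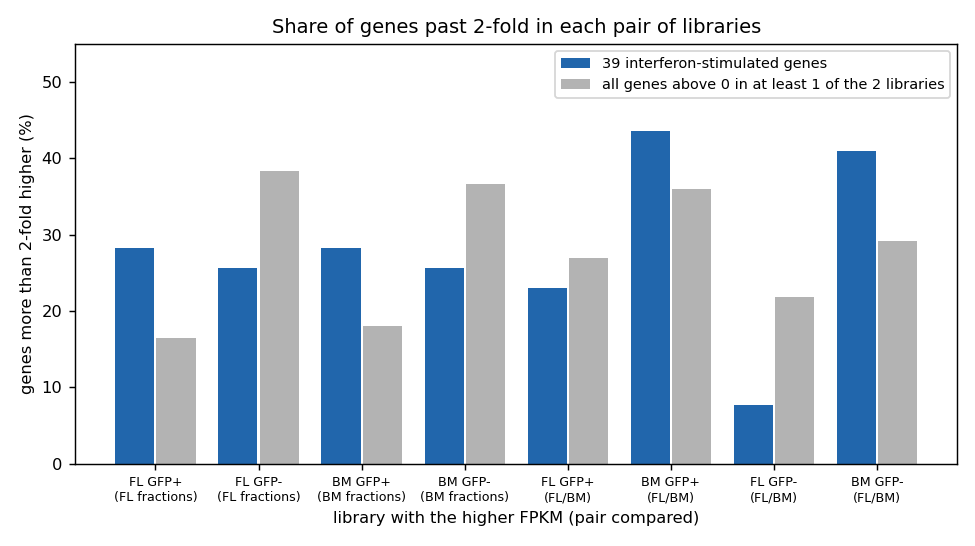
Share of genes with an FPKM more than 2 times higher in the named library of each pair, for the 39 genes (blue) and for all genes above 0 in either library of the pair (grey). The blue bars stand at 28.2% and 25.6% for the GFP+ and GFP- libraries of both tissues, and at 43.6% and 41.0% for the BM libraries of the tissue pairs.

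Other genes of the pathway, 87 from lists of ligands, receptors, kinases, inducers, negative regulators and further interferon-induced genes, were also more often higher in BM on the deposited scale, and other scalings were not run for them. In both fractions 21 of the 87 were more than 2-fold higher in BM and 0 in FL, against 14% and 8.78% of all genes. The 87 include genes at 0 in every library, most of them ligands, whereas the shares of all genes in this paragraph leave such genes out. Among the 34 further interferon-induced genes 13 were, including *Ly6a*, the surface protein gene *Ly6e* with 117, 99.5, 838 and 403 FPKM, and *Zbp1*, a sensor of Z-form nucleic acid, with 0, 1.09, 63.6 and 18.9. Of 9 negative regulators 1, *Socs3*, was. Of the 12 inducers, the endosomal RNA and DNA sensors *Tlr7* and *Tlr9* were at 0 in both FL libraries and had 1.89 and 3.06, and 15.7 and 1.11 FPKM, in BM GFP+ and GFP- cells. For GFP, 3 of the 87 genes were more than 2-fold higher in GFP+ cells of both tissues and 3 in GFP- cells, against 3.15% and 16.4% of all genes. The former were *Ifi27l2a* with 10.7, 1.08, 727 and 93.6, the growth regulator *Slfn2* with 46.0, 21.8, 169 and 69.9, and *Pml*, the organiser of nuclear bodies, with 58.5, 26.0, 51.0 and 24.9. The latter, *Ifnz*, *Ifnlr1* and *Trim24*, had FPKM under 1 in all libraries.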

How the data were processed

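RNA of 4 LSK-SLAM libraries was prepared by the authors with the mirVana kit and the SMARTER protocol and sequenced on a HiSeq2000. The deposited values are FPKM that the authors computed with Bowtie, TopHat and Cufflinks 2.2.1, using fragment-bias and multi-read corrections in Cuffquant and geometric scaling in Cuffnorm. The study's methods name NCBI37/mm9 and the submitters' processing notes mm10. The files hold no coordinates, and positions given here are those of the GRCm38.p6 promoter table. Read counts and standard errors are not in the files used here. Strand of counting is not given in the sources used here.

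Groups follow the sample titles. The study called a gene high in a fraction when its FPKM was more than 2 times that of the other fraction in both FL and BM. The same threshold was applied here also to each pair of libraries and to the tissue pairs, over genes above 0 in either library. Ratios used log2(FPKM + 1), which understates changes of low genes. The tests were limma 3.58.1 in R 4.3.3 (lmFit, eBayes with trend, GFP and tissue as terms, Benjamini-Hochberg adjustment over genes that reached 1 FPKM in 2 or more libraries). Other steps used Python 3.11.15, pandas 2.3.3 and matplotlib 3.10.9. Code was checked on simulated FPKM. The rule for the members uses no measured value, but the members and lists were chosen with earlier results of these data known. By the naming rule, values were to be given for members at 1 FPKM or more in all libraries, past 2-fold the same way in both tissues or fractions, or among the 3 largest ratios of a pair in either direction (37 genes). *Oas3* and *Mx1* fell outside it and are given to account for every member. From the other pathway lists, receptors, ligands above 0, *Ly6a* and genes past 2-fold the same way in both tissues were to be named (the rule also named 1 gene by its symbol that is not reported here), and *Ly6e*, *Zbp1*, *Socs3*, *Tlr7*, *Tlr9*, *Gbp4* to *Gbp7*, *Siglech*, *Procr*, *Cd68*, *C1qa*, *C1qb*, *Id1*, *Id3*, *Smad7* and *Bambi* were chosen after their values were seen. *Ighm* and *Hbb-b2* of the marker lists were not analysed here, and *Adgre1* is listed under its older symbol *Emr1*. Alternatives were a 4-fold threshold, an FPKM filter of 1, a pseudocount of 0.1, 2 other scalings, and limma without trend or block.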

Additional observations from a re-analysis of the deposited data

Results flagged for a closer look

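The GFP contrast ran in opposite directions in the FL and the BM for 7 of the 39 genes, each past 2-fold in both (17.9%, against 13.6% of 15035 genes). With 1 library per condition the difference was not tested. On the log2(FPKM + 1) scale, the GFP+ over GFP- ratio of BM minus the one of FL was 4.27 for *Rsad2*, 4.21 for *Parp14*, 2.76 for *Oas3* and 2.75 for *Ddx58*. It was -3.41 for *Gbp2*, -2.40 for *Irgm1* and -2.07 for *Mx1*. *Rsad2* and *Parp14* were listed at 0 in FL GFP+ cells, and *Mx1* did not exceed 2.31 FPKM in any library. With equal FPKM totals or equal upper quartiles *Gbp2* and *Irgm1* no longer passed 2-fold in the FL and *Oas3* no longer did in the BM.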

How the results depend on the processing

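A 4-fold threshold left 6 and 6 genes higher in FL GFP+ and GFP-, against 7.72% and 31.6% of all genes. In BM GFP+ and GFP- it left 2 and 2, against 8.11% and 29.8%. Between tissues it left 1 in FL and 12 in BM among GFP+ cells, against 17.1% and 27.2%. Among GFP- cells it left 0 in FL and 4 in BM, against 11.8% and 21.6%. The same threshold left 1 gene higher in GFP- cells of both tissues (against 12.7% of all genes) and 2 higher in BM in both fractions (against 9.04%). Requiring an FPKM of at least 1 took the genes higher in GFP+ cells of both tissues from 1 to 0 and the FL median ratio from 0.0011 to -0.040. Equal FPKM totals shifted the median ratio of genes with an FPKM of at least 1 by -0.24 in the FL, -0.41 in the BM, 0.57 between tissues in GFP+ and 0.40 in GFP- cells, and equal upper quartiles by -0.21, -0.095, 0.043 and 0.15. With equal totals 7 genes were higher in FL GFP+ cells, 7 in FL and 9 in BM among GFP- cells, 1 in FL and 3 in BM in both fractions, and the median ratios were -0.24 for the FL fractions and 0.0043 between tissues in GFP+ cells. With equal upper quartiles these were 7 in FL GFP+ cells, 6 in FL among GFP- cells and a median of -0.21 for the FL fractions. Shares of all genes, which moved too, are given with these comparisons above. Limma's 2 member calls for tissue became 0 without trend, 1 without the block, 0 with a pseudocount of 0.1, 0 with equal totals and 3 when genes at 1 FPKM in 1 library entered. Its GFP effect called 0 members under each, with 0 to 4 at an unadjusted *P* value under 0.05. Over all genes the 288 tissue calls became 0, 176, 80, 208 and 1003 in that order of settings, and the 13 GFP calls became 0, 4, 1, 11 and 171. No paired analysis was possible because each group has 1 library, so that no replicate numbers are shared. Limma's block pairs the fractions by tissue, and its loss is the setting without the block. With 1 library a group, none could be left out. The cause of these shifts was not tested.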

Other observations

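Relatives of the listed genes that are in none of the fixed lists, chosen after their values were seen, gave the following FPKM in FL GFP+, FL GFP-, BM GFP+ and BM GFP- cells. *Ifitm6*, which belongs to the family of *Ifitm1*, was at 0 in both FL libraries and had 232 and 66.3 in BM, a tissue split that *Ifitm1*, *Ifitm2* and *Ifitm3* did not have. *Ifitm7* had 0.114, 4.89, 0.476 and 4.59, lower in GFP+ cells of both tissues. *Oas1b*, the synthetase gene known for its part in resistance of mice to flaviviruses, had 0.734, 7.46, 0.0619 and 2.69, and *Oas1c* had 0.0332, 1.79, 0 and 2.90, both again lower in GFP+ cells of both tissues. *Ifi30*, a lysosomal reductase of antigen-presenting cells, had 6.36, 9.46, 189.9 and 49.7. The GTPase genes did not share 1 pattern. *Gbp9* had 4.28, 1.53, 10.7 and 4.19, more than 2-fold higher in GFP+ cells of both tissues, whereas *Gbp8* had 0, 1.64, 4.22 and 6.63 and *Irgm2* had 2.62, 12.6, 6.66 and 9.15, lower in GFP+ cells of both. None of these differences has a replicate.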
